A study of Mus musculus with 17 samples.

Results

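Ccl2, Ccl7, Ccl8 and Ccl12 are the mouse genes of the MCP-type (monocyte chemoattractant protein) chemokines, a family within the CC chemokines. Members were taken by symbol from the joint table of gene counts, by a rule that uses no measured value. They were chosen, however, with earlier results of these data known. All 4 were among the 22859 genes in the table, and all 4 were among the 15272 genes that passed the filter on low counts and were tested.

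Chemokines are small secreted proteins that bind G protein-coupled receptors on leukocytes and direct their migration. CCL2 (MCP-1), CCL7 (MCP-3) and CCL12 (MCP-5) act on CCR2, the receptor by which classical monocytes leave the bone marrow and enter inflamed tissue. CCL7 also binds CCR1 and CCR3, and mouse CCL8 (MCP-2) is known as a ligand of CCR8. Macrophages and fibroblasts of the synovium, the membrane that lines joints, are known sources of CCL2 in arthritis. Transcription of these genes is known to be driven by NF-kB and by interferon signalling, to an extent that differs between the members.

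The data are bulk RNA-seq of synovial macrophages sorted from adult Fcgr2b-KO mice of both sexes, so that controls carry the deletion too. Fcgr2b encodes the inhibitory Fc receptor for immunoglobulin G, and its loss lowers the threshold at which immune complexes (IC, antibody bound to its antigen) activate a cell. IC of ovalbumin and rabbit antibodies against it had been given into a vein 8 h before the synovium was taken, and the labels call the other mice Control. The sort gave LYVE1+CX3CR1+ macrophages (labelled Lyve1), which lie in the lining layer, MHCII+CD11c- macrophages (labelled IAIE after the MHC class II molecules) and MHCII+CD11c+ macrophages (labelled CD11c). There were 3 libraries in each of the 6 groups, except for 2 in MHCII+CD11c+ macrophages after IC. Whether a library came from 1 mouse or from pooled mice is not given in the sources used here, so that p-values measure the spread between libraries.

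Libraries held between 2301913 and 7248939 counts. At the depth of the smallest library, LYVE1+CX3CR1+ macrophages after IC were expected to show 12953 ± 1233 genes with a count (SD, n = 3), against 17041 ± 586 (n = 3) in their controls and a range of 13816 to 17675 in libraries of the other groups. The 3 libraries had 13464, 13849 and 11547 such genes, below every other library of the study but 1, a MHCII+CD11c+ control with 13816. The part of lower detection in the values of this group was not tested. Fcgr2b itself was counted in every library, at 69.3 to 248 CPM (counts scaled to a fixed library size). Which exons are deleted is not given in the sources used here, so these counts do not check the label. Sorting markers followed the labels. Itgax, which encodes CD11c, lay between 275 and 443 CPM in MHCII+CD11c+ libraries and at no more than 16.0 CPM elsewhere, and the summed level of 4 MHC class II genes lay between 11129.7 and 34219 CPM in both MHCII+ subsets and at no more than 156 CPM in LYVE1+CX3CR1+ macrophages. Lyve1 was not specific to its subset, at 3272 to 4116 CPM in LYVE1+CX3CR1+ macrophages after IC and at 1455 to 2458 CPM in MHCII+CD11c- macrophages after IC.

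The 4 genes lie on the plus strand within 81.2 kb of chromosome 11 (GRCm38, mm10; GENCODE M21). Ccl2 runs from chr11:82035571-82037453 and Ccl7 from chr11:82045712-82047525. Ccl12 follows at chr11:82101845-82103400 and Ccl8 at chr11:82115185-82116799. Ccl11, which encodes the eosinophil attractant eotaxin, lies between Ccl7 and Ccl12 and had 0 to 22 counts per library. A gene model on the minus strand, Gm17268, overlaps Ccl2. It had 0 to 4 counts per library, against 208 to 2325 for Ccl2. Coding sequences of the members were identical in 44.8% to 65.0% of alignment columns, with columns that hold a gap counted. That of Ccl2 had 447 bases, against 294 to 315 in the others, so pairs with Ccl2 hold more gaps (44.8% to 48.3%). The longest run of identical bases between any 2 transcripts of the members was 23 bases, between Ccl2 and Ccl7.

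Ccl12 and Ccl8 are neighbours in the genome. On average over the subsets Ccl12 was called after IC and Ccl8 was not, and the difference between them was not tested. Upstream sequences were found for these 2 of 4 members only and are shown. Both come from RefSeq (GRCm38.p6) and hold the 250 bases before the gene's start, 5′ to 3′ on the plus strand, at chr11:82101595-82101844 for Ccl12 and chr11:82114935-82115184 for Ccl8. Capitals mark GGAAATCA, 1 of 3 runs of 8 bases that both share, and a match to the TATA box (TATAAA).
Ccl12: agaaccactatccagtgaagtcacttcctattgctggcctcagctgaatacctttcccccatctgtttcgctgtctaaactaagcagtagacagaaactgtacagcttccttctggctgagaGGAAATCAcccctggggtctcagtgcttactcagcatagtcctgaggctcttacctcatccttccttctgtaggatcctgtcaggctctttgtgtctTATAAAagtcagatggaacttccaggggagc
Ccl8: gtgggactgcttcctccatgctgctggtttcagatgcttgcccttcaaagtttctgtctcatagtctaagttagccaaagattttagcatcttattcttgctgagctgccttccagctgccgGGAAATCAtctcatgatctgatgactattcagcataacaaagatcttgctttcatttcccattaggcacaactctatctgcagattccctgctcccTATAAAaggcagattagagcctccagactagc

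No longer run was shared. The others of this length were TATAAAAG, which holds the TATA box match, and TCAGCATA. GGAAATCA began 128 bases before the start in both genes. Of 270 alignment columns, those with a gap counted, 150 were identical (55.6%). How often unrelated sequences share runs of this length was not counted. The TATAAA match lay 31 to 26 bases before the start of Ccl12 and 32 to 27 bases before that of Ccl8. On the plus strand, 7.55% of 32536 upstream sequences of this length held TATAAA. On both strands, neither sequence held the letters searched for AP-1 (TGANTCA), STAT (TTCNNNGAA) and CCAAT/enhancer binding protein (TTNNGNAA) sites, nor those of the NF-kB site and the interferon-stimulated response element. These letters were present in 6.73%, 7.04%, 36.8%, 3.92% and 2.98% of the upstream sequences, in that order. A match or its lack describes these letters in this window and nothing more.

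Library sizes behind CPM were scaled by TMM (trimmed mean of M-values). Ccl2, the main monocyte attractant of the family, was expressed in every group. In LYVE1+CX3CR1+ macrophages the controls had 192, 307 and 221 CPM of Ccl2, and after IC the libraries had 103, 101 and 86.3 CPM. The highest library after IC lay below the lowest control. MHCII+CD11c- macrophages had 291, 411 and 429.6 CPM of Ccl2 in controls and 302, 398 and 429.8 CPM after IC, and these ranges lay on top of each other. MHCII+CD11c+ macrophages had 176, 277 and 289 CPM in controls and 250.5 and 268 CPM after IC, again with overlap. From high to low, the group means of Ccl2 ran from MHCII+CD11c- controls (377 ± 75.1 CPM, n = 3) and the same subset after IC (377 ± 66.4, n = 3) to LYVE1+CX3CR1+ macrophages after IC (97.0 ± 9.30, n = 3). Neighbours in this order did not overlap only between MHCII+CD11c- and MHCII+CD11c+ macrophages after IC and between LYVE1+CX3CR1+ controls and the same subset after IC.

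Ccl7 encodes a further monocyte attractant. LYVE1+CX3CR1+ controls had 143, 168 and 159.9 CPM of Ccl7, and libraries after IC had 75.5, 83.1 and 49.8 CPM, all below the controls. In MHCII+CD11c- macrophages it was the other way round, with 176, 249 and 237 CPM in controls and 267, 348 and 351 CPM after IC, all above the controls. MHCII+CD11c+ macrophages had 31.9, 107 and 69.6 CPM in controls and 91.7 and 69.8 CPM after IC, with overlap. The order of group means ran from MHCII+CD11c- macrophages after IC (322 ± 47.6 CPM, n = 3) over MHCII+CD11c- controls (221 ± 39.2) and LYVE1+CX3CR1+ controls (157 ± 12.7), each without overlap with the next. The 3 lowest groups lay between 69.4 and 80.7 CPM and were not separated by their libraries.

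Ccl8 is known as a CCR8 ligand in mice. MHCII+CD11c- macrophages had 144, 157 and 185 CPM of Ccl8 in controls and 269, 169 and 183 CPM after IC, with overlap. In LYVE1+CX3CR1+ macrophages the controls had 32.4, 18.1 and 22.9 CPM and the libraries after IC had 21.1, 4.72 and 6.64 CPM, with overlap through the first of them. MHCII+CD11c+ controls had 4.89, 11.3 and 9.45 CPM, and after IC the libraries had 58.3 and 18.0 CPM, both above the controls but far apart from each other. MHCII+CD11c- macrophages, with or without IC, were thus separated from every other group, while neighbours among the other 4 groups overlapped.

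Ccl12, a CCR2 ligand of mice, was the lowest member per length in 5 of 6 groups (given with the levels per kb). LYVE1+CX3CR1+ controls had 3.78, 6.49 and 6.56 CPM of Ccl12, and libraries after IC had 10.8, 14.8 and 16.2 CPM. MHCII+CD11c- controls had 17.9, 14.8 and 53.2 CPM, and libraries after IC had 53.9, 106 and 97.7 CPM. MHCII+CD11c+ controls had 4.68, 3.53 and 10.2 CPM, and libraries after IC had 15.6 and 12.1 CPM. In each subset, every library after IC lay above every control, although the third MHCII+CD11c- control came within 1 CPM of the lowest library after IC. No overlap upwards in all 3 subsets was found for 111 of 15272 genes (0.727%). Ccl12 was the sole member among them.

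**Figure D1:**
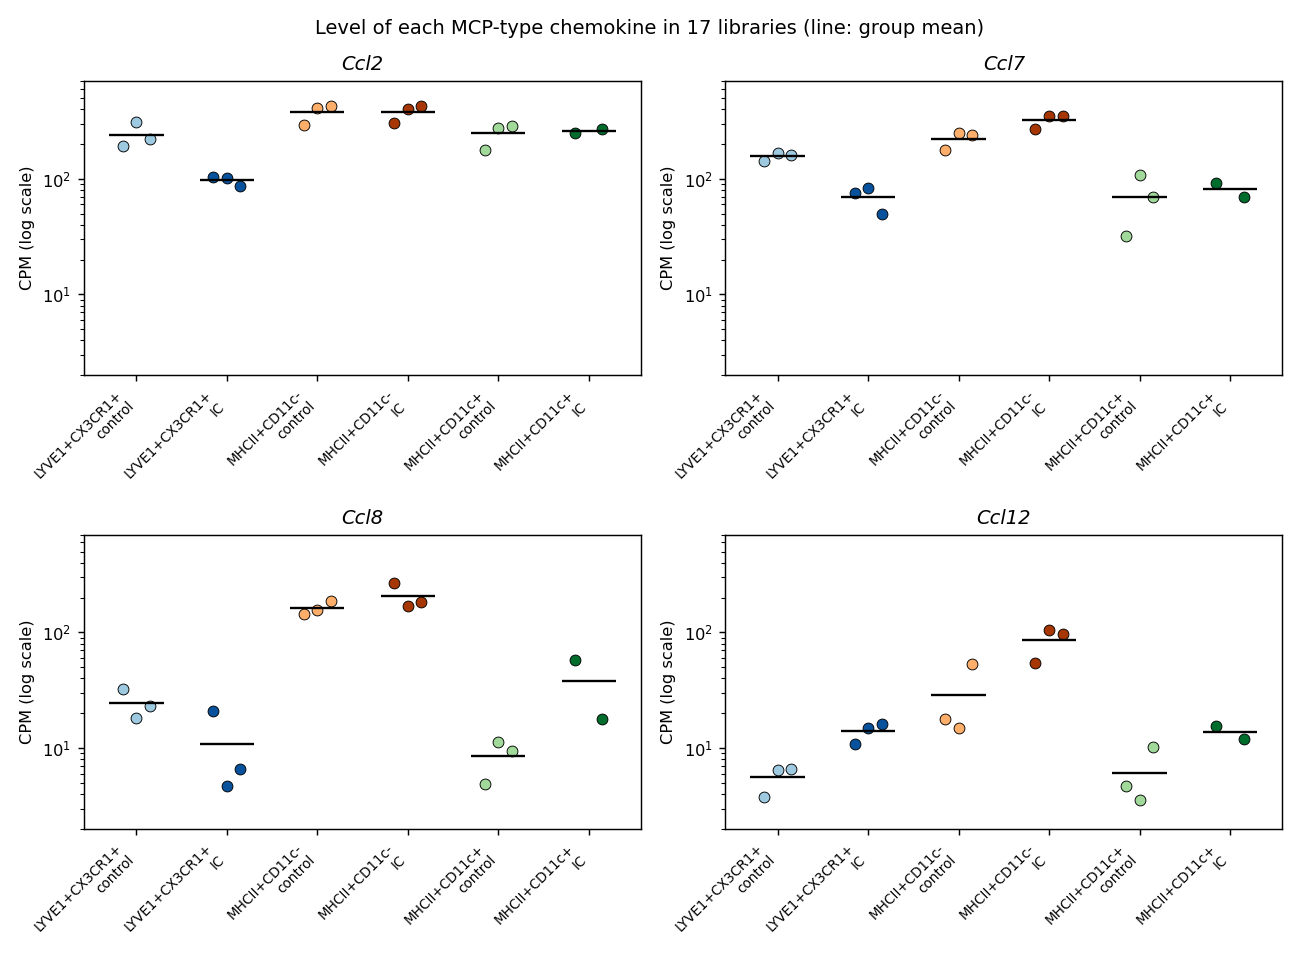
CPM of Ccl2, Ccl7, Ccl8 and Ccl12 (1 panel each, log scale) in each of the 17 libraries, by subset and treatment, where a point is a library and a line a group mean. MHCII+CD11c- macrophages hold the highest means of all members, LYVE1+CX3CR1+ macrophages after IC hold the lowest Ccl2 libraries (86.3 to 103 CPM), and Ccl12 lies higher after IC in each subset.

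Comparison of IC with control asks how each subset responds to circulating IC in the absence of the inhibitory receptor. In LYVE1+CX3CR1+ macrophages 1 member passed the test. Ccl2 fell from 239.9 ± 60.1 CPM to 97.0 ± 9.30 CPM (n = 3 each), a log2 fold change of -1.30 ± 0.22 (SE; edgeR, adjusted p = 0.00332). Of all genes tested in this subset, 147 were called (0.963%), 124 of them lower (0.812%). Ccl7 had a log2 fold change of -1.17 ± 0.30 (adjusted p = 0.0669) and Ccl8 of -1.16 ± 0.52 (adjusted p = 0.333). Ccl12 had a log2 fold change of the other sign, 1.31 ± 0.48 (adjusted p = 0.20), and the difference between members was not tested. The median log2 fold change over all genes was -0.14, and the libraries after IC are those with fewer genes detected than in their controls. Levels fell with no overlap for 16.7% of genes and rose with no overlap for 4.95%, which are the backgrounds for Ccl2 and Ccl7 and for Ccl12. With voom and quality weights, the log2 fold change of Ccl2 was -1.13 ± 0.26 and missed the threshold (limma, adjusted p = 0.0519). Leaving out any library of the study kept the call, with adjusted p from 0.00190 to 0.0375 in edgeR. Ccl7 passed the threshold without MHCII+CD11c+ control 1 or 2 (adjusted p = 0.0115 and 0.0158), with the same fold change.

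In MHCII+CD11c- macrophages no member passed the test, against 107 called genes of 15272 (0.701%). The fitted change of Ccl12 was 1.60 ± 0.44 on the log2 scale (adjusted p = 0.107), with 28.6 ± 21.3 CPM in controls and 85.8 ± 28.0 CPM after IC (n = 3 each). The third control of this subset, at 53.2 CPM, lay far from the other two, and without that library the log2 fold change was 2.38 and was called (adjusted p = 0.0242). Ccl12 was also called under 4 other settings, with log2 fold changes of 1.62 to 2.08. That of Ccl7 was 0.55 ± 0.29 (adjusted p = 0.571), with all libraries after IC above the controls, as were those of 8.72% of genes. Ccl8 (0.35 ± 0.46, adjusted p = 0.914) and Ccl2 (-0.001 ± 0.21, adjusted p = 1) had smaller fitted changes.

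MHCII+CD11c+ macrophages also had no called member, against 33 called genes (0.216%). Ccl8 had the largest fitted change of the members, a log2 fold change of 2.16 ± 0.56 (adjusted p = 0.271), from 8.56 ± 3.31 CPM (n = 3) to 58.3 and 18.0 CPM. Which of these 2 libraries was left out moved it between 1.07 and 2.75. It was called without the first LYVE1+CX3CR1+ library after IC (adjusted p = 0.0429). Ccl12 had a log2 fold change of 1.23 ± 0.52 (adjusted p = 0.820), Ccl7 of 0.22 ± 0.33 and Ccl2 of 0.07 ± 0.24 (adjusted p = 1 for both). Ccl8 and Ccl12 lay higher after IC with no overlap, as did 14.1% of genes. With 2 libraries after IC, this subset gave the least precise estimates.

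Averaged over the 3 subsets with equal weight, Ccl12 rose by 1.38 ± 0.28 on the log2 scale (edgeR, adjusted p = 0.00506). It was higher after IC in 8 of 8 libraries than in every control of their subset. Of all genes, 511 were called in this average (3.35%), 259 of them higher (1.70%). The call held under each of the other fits, with adjusted p from 2.48e-04 to 0.0194 and log2 fold changes from 1.27 to 1.66. Ccl2 had an average log2 fold change of -0.41 ± 0.13 (adjusted p = 0.0808, and 0.0369 without the first MHCII+CD11c+ control), Ccl7 of -0.14 ± 0.18 (adjusted p = 0.770) and Ccl8 of 0.45 ± 0.30 (adjusted p = 0.484). For these genes the average joins subsets with fitted changes of unlike sign.

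**Figure D2:**
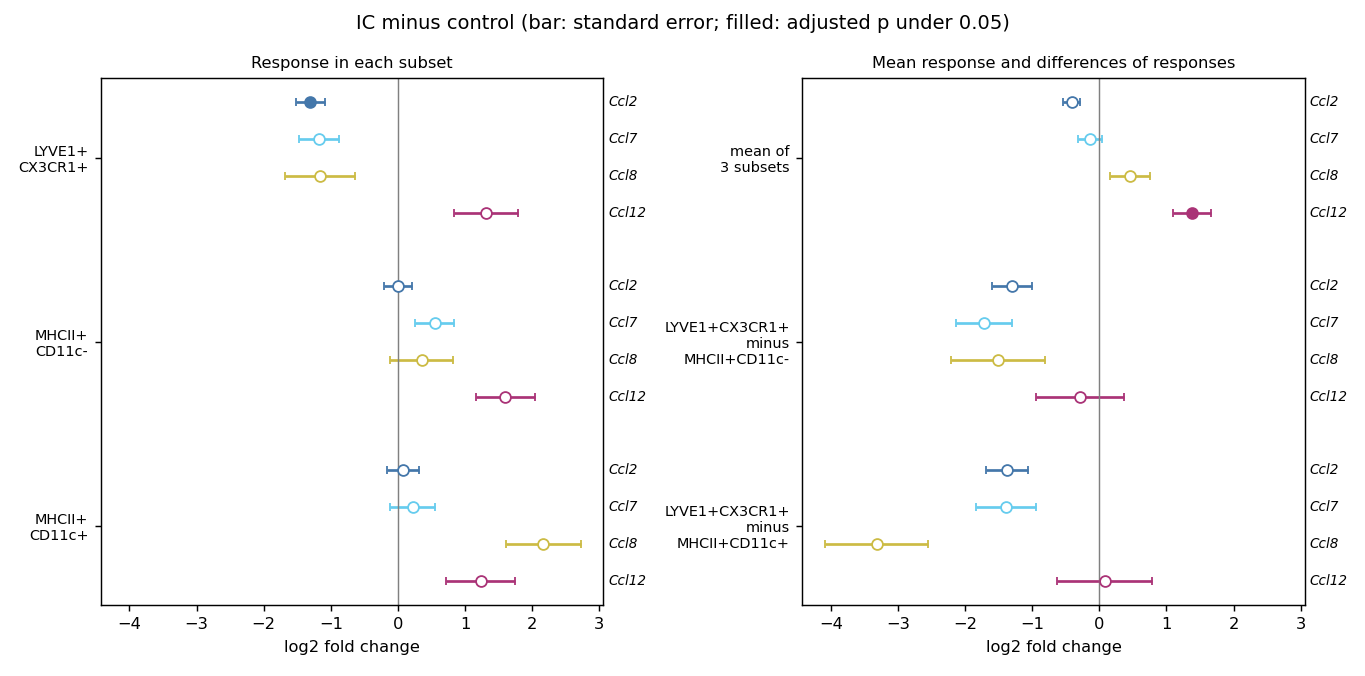
Log2 fold change from control to IC of the 4 members (points) with the standard error (bars), in each subset on the left and, on the right, averaged over subsets and as the difference of responses between subsets; filled points have an adjusted p under 0.05. Ccl12 lies to the right of 0 in each subset (1.31, 1.60 and 1.23), while Ccl2 is called in LYVE1+CX3CR1+ macrophages (-1.30) and near 0 in both MHCII+ subsets.

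Whether the response differed between subsets was tested as an interaction. No member passed, and few genes did. Against MHCII+CD11c- macrophages, 4 genes were called (0.0262%), and against MHCII+CD11c+ macrophages 5 genes (0.0327%). The response of Ccl2 in LYVE1+CX3CR1+ macrophages was lower than that in MHCII+CD11c- macrophages by -1.30 ± 0.30 on the log2 scale (adjusted p = 0.198) and lower than that in MHCII+CD11c+ macrophages by -1.37 ± 0.32 (adjusted p = 0.135). For Ccl7 these differences were -1.72 ± 0.42 (adjusted p = 0.234) and -1.39 ± 0.44 (adjusted p = 0.352). Ccl8 differed by -1.51 ± 0.70 (adjusted p = 0.658) and -3.32 ± 0.76 (adjusted p = 0.217). The differences of Ccl12 were -0.29 ± 0.65 and 0.08 ± 0.71 (adjusted p = 0.983 and 1). Without single libraries, the difference of Ccl7 was called against MHCII+CD11c- macrophages (first MHCII+CD11c+ control left out, adjusted p = 0.0314) and against MHCII+CD11c+ macrophages (second MHCII+CD11c+ control, -1.86, adjusted p = 0.0239). That of Ccl8 against MHCII+CD11c+ macrophages was called without the first LYVE1+CX3CR1+ library after IC (-4.23, adjusted p = 0.00854). Between both MHCII+ subsets no gene was called (0% of 15272; 2 genes with DESeq2, and 496 at an unadjusted p under 0.05 in edgeR). There the differences, MHCII+CD11c+ minus MHCII+CD11c-, were 0.07 ± 0.32 for Ccl2, -0.33 ± 0.44 for Ccl7, 1.81 ± 0.73 for Ccl8 and -0.37 ± 0.69 for Ccl12 (adjusted p = 1 for each). The median of all genes was itself -0.16 and -0.21 in the comparisons of LYVE1+CX3CR1+ with MHCII+CD11c- and with MHCII+CD11c+ macrophages. The difference of Ccl2 was called against MHCII+CD11c+ macrophages with a replicate block (-1.42, adjusted p = 0.0329) and with no filter on low counts (-1.33, adjusted p = 0.0493), and against MHCII+CD11c- macrophages with surrogate variables (-1.57, adjusted p = 0.0455).

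The subsets were compared in control mice to show which macrophages carry these genes without a challenge. MHCII+CD11c- macrophages had the highest mean of each member. LYVE1+CX3CR1+ macrophages had less Ccl8, at 24.5 ± 7.30 CPM against 162 ± 20.9 CPM (log2 fold difference -2.72 ± 0.50, adjusted p = 0.0122). Ccl12 was likewise lower, at 5.61 ± 1.58 CPM against 28.6 ± 21.3 CPM (-2.34 ± 0.47, adjusted p = 0.00970). In this comparison 238 genes were called (1.56%), 186 of them lower (1.22%). Ccl2 (-0.65 ± 0.21, adjusted p = 0.161) and Ccl7 (-0.49 ± 0.29, adjusted p = 0.675) did not pass. Ccl7, Ccl8 and Ccl12 were lower with no overlap of libraries, as were 10.3% of genes. The call of Ccl8 was lost without the second or the third LYVE1+CX3CR1+ control (adjusted p = 0.0747 and 0.0848). That of Ccl12 was lost without the first LYVE1+CX3CR1+ control (0.0888), without the third MHCII+CD11c- control (log2 fold difference -1.58, adjusted p = 0.108) and with surrogate variables (-1.25, adjusted p = 0.147).

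MHCII+CD11c+ controls had less of 3 members than MHCII+CD11c- controls. Ccl8 had the largest fitted difference, at 8.56 ± 3.31 CPM (log2 fold difference -4.24 ± 0.55, adjusted p = 1.76e-04), and this call held under each of the other fits. Ccl12 was at 6.14 ± 3.57 CPM (-2.26 ± 0.48, adjusted p = 0.00327) and Ccl7 at 69.4 ± 37.5 CPM (-1.67 ± 0.30, adjusted p = 0.00124). Ccl2 did not pass (-0.61 ± 0.21, adjusted p = 0.0783). There were 1323 called genes (8.66%), 762 of them lower (4.99%). All 4 members were lower with no overlap of libraries, which held for 14.9% of genes. Without the third MHCII+CD11c- control the difference of Ccl12 was -1.45 (adjusted p = 0.0625), and a fit of these 2 groups alone gave -2.24 (adjusted p = 0.0516). Ccl7 was not called with surrogate variables (-1.78, adjusted p = 0.0551).

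Between LYVE1+CX3CR1+ and MHCII+CD11c+ controls, Ccl7 was higher in the former (log2 fold difference 1.18 ± 0.30, adjusted p = 0.00968). In this pair 2326 genes were called (15.2%), 1196 of them higher (7.83%). The call of Ccl7 was lost with surrogate variables (1.17, adjusted p = 0.0605) and in a fit of the 2 groups alone (1.12, adjusted p = 0.0563). Ccl8 had a log2 fold difference of 1.52 ± 0.52 (adjusted p = 0.0658) with all LYVE1+CX3CR1+ libraries higher, as for Ccl7 and for 20.8% of genes. It was called without any of 4 libraries after IC, which lie outside this pair (adjusted p from 0.0126 to 0.0427). Ccl2 (-0.04 ± 0.21) and Ccl12 (-0.08 ± 0.49) were near 0.

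After IC all 4 members were called lower in LYVE1+CX3CR1+ macrophages, against MHCII+CD11c- macrophages. Ccl2 was lower by -1.96 ± 0.22 on the log2 scale (adjusted p = 6.07e-06) and Ccl7 by -2.21 ± 0.31 (adjusted p = 2.24e-04). Ccl8 was lower by -4.23 ± 0.55 (adjusted p = 4.20e-04), from 207 ± 54.0 CPM in MHCII+CD11c- to 10.8 ± 8.93 CPM in LYVE1+CX3CR1+ macrophages. Ccl12 was lower by -2.63 ± 0.47 (adjusted p = 0.00130). These calls held under each of the other fits, among 846 called genes (5.54%) of which 732 were lower (4.79%). Levels of all 4 members did not overlap, which held downwards for 15.7% of genes. The median of all genes was -0.14, and the LYVE1+CX3CR1+ libraries are again those with fewer genes detected.

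MHCII+CD11c+ macrophages after IC had 80.7 ± 15.5 CPM of Ccl7 (n = 2), below MHCII+CD11c- macrophages by -2.0 ± 0.35 on the log2 scale (adjusted p = 0.00187). Ccl8 (-2.43 ± 0.57, adjusted p = 0.0250) and Ccl12 (-2.63 ± 0.54, adjusted p = 0.00418) were lower as well, and Ccl2 did not pass (-0.54 ± 0.24, adjusted p = 0.288). There were 616 called genes (4.03%), 267 of them lower (1.75%). The libraries of all 4 members did not overlap, as for 17% of genes that lay lower. Each of these 3 calls was lost without the second MHCII+CD11c+ library after IC (adjusted p = 0.0811 for Ccl7, 0.343 for Ccl8 and 0.127 for Ccl12), which leaves 1 library in that group, assumed to vary like the others. That of Ccl8 was also lost without the first MHCII+CD11c- library after IC (adjusted p = 0.0525) and with no filter on low counts (0.0739).

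LYVE1+CX3CR1+ macrophages had less Ccl2 after IC than MHCII+CD11c+ macrophages, at 97.0 ± 9.30 CPM (n = 3) against 250.5 and 268 CPM (-1.42 ± 0.24, adjusted p = 2.29e-04). This call held under each of the other fits. In this pair 1824 genes were called (11.9%), 1286 of them lower (8.42%). Libraries lay lower with no overlap for Ccl2 and for 27.8% of genes. Ccl8 had a log2 fold difference of -1.79 ± 0.56 (adjusted p = 0.0507), which was -2.74 without the first LYVE1+CX3CR1+ library after IC (called, adjusted p = 0.00207) and -0.71 without the first MHCII+CD11c+ library after IC. Leaving out any of 4 further libraries also brought its adjusted p under the threshold (0.0169 to 0.0495). Ccl7 (-0.21 ± 0.33) and Ccl12 (0.003 ± 0.51) were near 0.

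In both conditions, every MHCII+CD11c- library lay above every library of the other 2 subsets for Ccl7, Ccl8 and Ccl12. This held for 123 of 15272 genes (0.805%). Ccl2 was not among them, since a control LYVE1+CX3CR1+ library (307 CPM) lay above a control MHCII+CD11c- library (291 CPM).

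**Figure D3:**
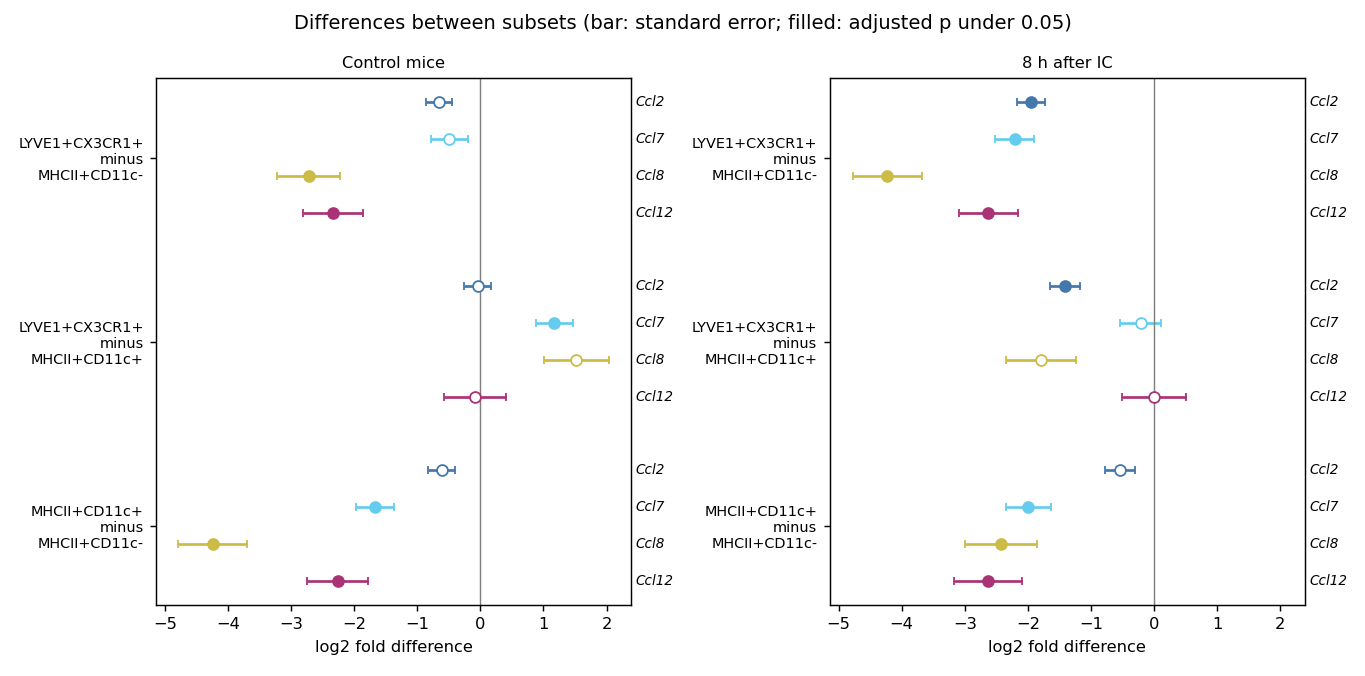
Log2 fold differences between pairs of subsets for the 4 members (points) with the standard error (bars), in control mice on the left and 8 h after IC on the right; filled points have an adjusted p under 0.05. Against MHCII+CD11c- macrophages all points lie to the left of 0, with Ccl8 at -2.72 and -4.24 in controls and -4.23 and -2.43 after IC.

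To compare levels between genes, CPM were divided by the length of the exons of each gene in kb. Summed over the 4 members, MHCII+CD11c- macrophages held the most, at 791 to 1135 CPM per kb in controls and 1225 to 1356 after IC. The other subsets held 213 to 527 in controls, LYVE1+CX3CR1+ macrophages 181 to 246 after IC and MHCII+CD11c+ macrophages 380.4 and 478 after IC. The mixture differed by subset. In MHCII+CD11c- controls Ccl2, Ccl8 and Ccl7 were near to equal, at 331 ± 66, 318 ± 41.0 and 276 ± 49.0 CPM per kb, although Ccl2 was at 464 ± 92.4 by its longest protein-coding transcript. In LYVE1+CX3CR1+ controls Ccl2 (211 ± 52.8) and Ccl7 (196 ± 15.9) were well above Ccl8 (47.9 ± 14.3), and in MHCII+CD11c+ controls Ccl2 (217 ± 54.4) was above Ccl7 (86.7 ± 46.8) and Ccl8 (16.8 ± 6.48).

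As a share of this sum, Ccl12 was 2.23% ± 0.52 in LYVE1+CX3CR1+ controls and 12.3% ± 4.23 after IC. The sum itself was lower after IC, at 181 to 246 CPM per kb against 418 to 527 in these controls. Ccl12 went from 10.4 ± 2.95 to 25.9 ± 5.17 CPM per kb, and its response in this subset was not called (edgeR, adjusted p = 0.20). In MHCII+CD11c- macrophages its share was 5.23% ± 3.12 in controls and 12.2% ± 3.57 after IC, with overlap. MHCII+CD11c+ macrophages had a share of 3.58% ± 1.76 in controls and 5.92% and 6.07% after IC. The share of Ccl2 was highest in MHCII+CD11c+ controls, at 66.6% ± 6.35, and lowest in MHCII+CD11c- macrophages after IC, at 25.4% ± 3.27. The exons of Ccl2 include a retained intron. By the longest protein-coding transcript, a setting added after seeing the data, Ccl2 was at 464 CPM per kb in MHCII+CD11c- macrophages after IC in place of 331, above Ccl8 (405 ± 106) and Ccl7 (402 ± 59.4). In LYVE1+CX3CR1+ macrophages after IC it moved from 85.2, beside 86.7 for Ccl7, to 119.

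**Figure D4:**
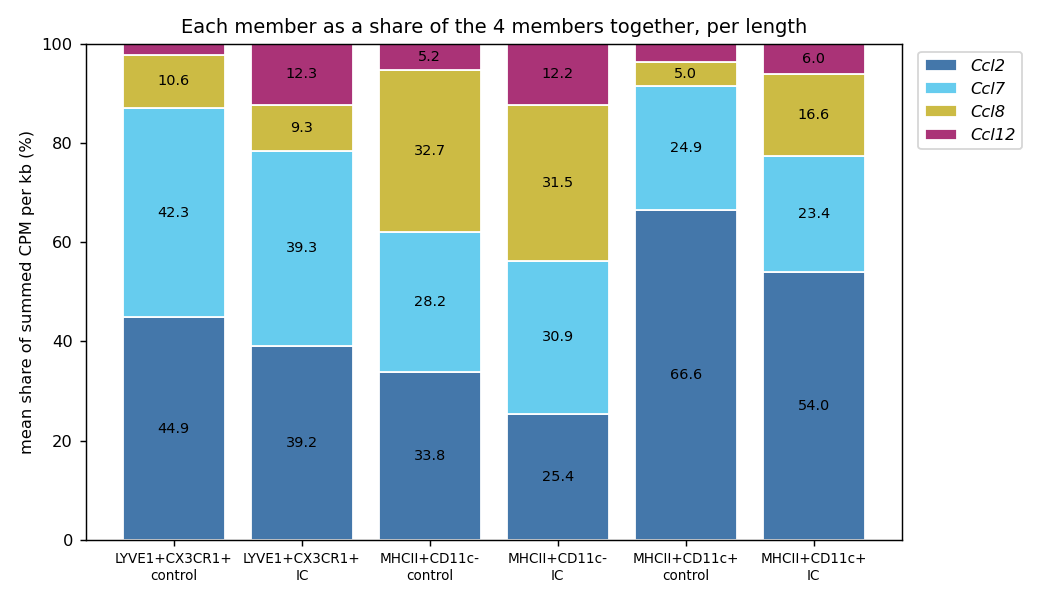
Mean share of each member in the summed CPM per kb of exons of the 4 members (stacked bars, percent) in the 6 groups of libraries. Ccl2 makes up 66.6% in MHCII+CD11c+ controls and 25.4% in MHCII+CD11c- macrophages after IC, and Ccl12 makes up 2.23% in LYVE1+CX3CR1+ controls and 12.3% after IC. In LYVE1+CX3CR1+ macrophages the sum was lower after IC, and the response of Ccl12 was not called.

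Over the 17 libraries, the log2 CPM of all pairs of members were positively correlated, with Pearson's r from 0.43 (Ccl2 and Ccl12) to 0.87 (Ccl7 and Ccl8). These points share libraries, subsets and depth, and the values are a description. After the group means were subtracted, r was 0.75 for Ccl2 and Ccl7 and 0.06 for Ccl2 and Ccl8. It was -0.13 for Ccl8 and Ccl12, which lie next to each other in the genome.

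Genes whose log2 CPM over the 17 libraries were most like that of a member were ranked by Pearson's r. For Ccl2 they were Gm34084 (r = 0.92), Hbegf (0.92), Tgtp2 (0.90), U2af2 (0.90) and Cd209b (0.89), and for Ccl7 they were Dnajb1 (0.89), Tfrc (0.88), Dennd1a (0.86), Ccdc8 (0.86) and Snx2 (0.85). The first for Ccl8 was Mx2 (0.92), an interferon-induced GTPase, followed by Gm7370 (0.91), C1qtnf1 (0.91), Siglec1 (0.90), a receptor of tissue macrophages, and Aoah (0.90). For Ccl12 they were Trim30a (0.88), Ccl24 (0.87), Irf7 (0.87), Ifitm3 (0.86) and Irgm1 (0.86). Irf7 encodes a transcription factor of the interferon response. By Spearman's rho, 2, 1, 1 and 3 of these 5 remained among the first 5 for Ccl2, Ccl7, Ccl8 and Ccl12, and none did by deviations from the group means.

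Receptors were read beside their ligands. Of 5 receptors and scavengers listed, 3 were tested, and none was called after IC in any subset (backgrounds of 0.963%, 0.701% and 0.216%, as above). Ccr2, the shared receptor of CCL2, CCL7 and CCL12, was at 862 ± 303 CPM in MHCII+CD11c+ controls, 355 ± 128 CPM in MHCII+CD11c- controls and 26.4 ± 10.4 CPM in LYVE1+CX3CR1+ controls. Its level in LYVE1+CX3CR1+ controls was below that of MHCII+CD11c- (-3.74 ± 0.51, adjusted p = 0.00262) and of MHCII+CD11c+ controls (-5.02 ± 0.54, adjusted p = 3.22e-05). Ccr1, a receptor of CCL7, was at 150.1 ± 17.8 CPM in LYVE1+CX3CR1+ controls and 224 ± 20.8 CPM after IC (0.58 ± 0.35, adjusted p = 0.491).

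Of 17 other CC chemokines listed, 12 were tested. Ccl9, a CCR1 ligand, rose in LYVE1+CX3CR1+ macrophages from 622 ± 178 to 1704 ± 267 CPM (1.45 ± 0.24, adjusted p = 0.00436) and was the sole member of the list called (0.963% of all genes), while the median of the list was -0.66. In MHCII+CD11c- macrophages 4 were called, all higher, with a median of 1.16 over the list (0.701% of all genes were called). Ccl9 rose by 2.11 ± 0.24 (adjusted p = 1.49e-04) and Ccl6, also a CCR1 ligand, by 1.78 ± 0.30 (adjusted p = 0.00876). Ccl3, another CCR1 ligand, rose by 1.52 ± 0.30 (adjusted p = 0.0145) and Ccl24, a CCR3 ligand, by 1.59 ± 0.32 (adjusted p = 0.0252). None was called in MHCII+CD11c+ macrophages, where the list's median was 1.03 and 0.216% of all genes were called.

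The cytokines that are known to induce MCP-type chemokines, with their receptors, gave no call in any subset among 15 tested of 17 listed, with medians of 0, -0.05 and 0.18. Of 21 factors acting on transcription of these genes, Cebpb was called in LYVE1+CX3CR1+ macrophages (0.79 ± 0.18, adjusted p = 0.0282) and in MHCII+CD11c- macrophages (1.17 ± 0.18, adjusted p = 0.00111). Irf7 was called in MHCII+CD11c+ macrophages, from 28.5 ± 14.3 CPM to 134 ± 45 CPM (2.26 ± 0.40, adjusted p = 0.0244). On average over the subsets Cebpb (0.94 ± 0.11) and Irf7 (1.25 ± 0.21) rose, and Nr3c1, the glucocorticoid receptor gene, fell by 0.45 ± 0.11 on the log2 scale (adjusted p = 8.58e-06, 0.00274 and 0.0293). In this average 3.35% of all genes were called. The median of this list lay at -0.03, -0.19 and -0.02 in the 3 subsets. No gene was called after IC in any subset among 7 factors that bind AU-rich or stem-loop elements of such mRNAs, beside the same shares of all genes in the subsets.

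Interferon-stimulated genes gave 1 call in each MHCII+ subset, where 0.701% (MHCII+CD11c-) and 0.216% (MHCII+CD11c+) of all genes were called. Of 12 tested, Oas1a was called in MHCII+CD11c- macrophages (1.27 ± 0.30, adjusted p = 0.0489) and Ifit2 in MHCII+CD11c+ macrophages (2.50 ± 0.47, adjusted p = 0.0290). No gene of this list was called in LYVE1+CX3CR1+ macrophages, where 0.963% of all genes were called. The list had a median of 0.26 for LYVE1+CX3CR1+, 1.39 for MHCII+CD11c- and 1.71 for MHCII+CD11c+ macrophages, against -0.14, -0.03 and 0.01 over all genes. After IC, 10 of 12 were called below the level of MHCII+CD11c- macrophages in the LYVE1+CX3CR1+ subset (median -3.10), as were all 4 members (background 4.79%). In controls 2 of 12 were called lower (background 1.22%), with 0 fitted above 0 (median -1.85). The difference of these responses gave no call in the list (0.0262% of all genes). LYVE1+CX3CR1+ libraries after IC are those with fewer genes detected. Mx1, an antiviral GTPase, was after IC at 8.78 ± 3.05 CPM in LYVE1+CX3CR1+ and 121 ± 48.9 CPM in MHCII+CD11c- macrophages (-3.80 ± 0.53, adjusted p = 3.81e-04). Their controls had 10.2 ± 5.66 and 51.2 ± 27.6 CPM.

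In sorted bulk samples, a change in the share of a cell type and a change in RNA per cell cannot be told apart, so markers of other cell types were read beside the members. The summed level of 8 fibroblast genes lay between 34.0 and 69.0 CPM in LYVE1+CX3CR1+ controls and 33.1 and 143 CPM after IC. It lay between 64.0 and 85.9 CPM in MHCII+CD11c- controls and 58.1 and 125 CPM after IC, and between 8.70 and 219.5 CPM in MHCII+CD11c+ libraries. The sum of 9 neutrophil genes reached 484 CPM in a MHCII+CD11c+ control. In MHCII+CD11c- macrophages it lay between 41.1 and 313 CPM in controls (median 126) and between 67.7 and 112 CPM after IC, with overlap. After IC this sum rests largely on Csf3r, with means of 69.0 CPM in MHCII+CD11c- and 26.5 CPM in MHCII+CD11c+ macrophages (49.3 and 15.3 CPM in their controls). The defining marker Ly6g was at 0 in all libraries of LYVE1+CX3CR1+ macrophages and of both MHCII+ subsets after IC. Of 7 classical monocyte genes 6 were in the table, and their sum lay between 465 and 722 CPM in LYVE1+CX3CR1+ controls, 483 and 589 CPM after IC, 343 and 545 CPM in MHCII+CD11c- macrophages, and 589 and 1188 CPM in MHCII+CD11c+ macrophages. MHCII+CD11c- macrophages, with the highest members, had medians of 389 CPM in controls and 465 CPM after IC. The sum rests on Ccr2 and Vcan, and single genes differed from it. Plac8 was at 12.1 CPM in MHCII+CD11c- controls and 90.9 CPM after IC, its highest group mean. The defining marker Ly6c2 was at 0 in LYVE1+CX3CR1+ libraries and at no more than 5.12 CPM elsewhere, highest in MHCII+CD11c- controls. Sums of 5 endothelial genes reached 63.7 CPM, those of lymphocytes 19.4 CPM, and 5 dendritic cell genes summed to 6.61 to 555 CPM, highest in MHCII+CD11c+ controls. In MHCII+CD11c+ macrophages, where Ccl8 and Ccl12 lay higher after IC with no overlap, 4 mast cell genes summed to 0.425 to 3.40 CPM in controls and to 18.8 and 35.7 CPM after IC, and reached 24.1 CPM in the other groups. The neutrophil sum of the same subset lay between 92.1 and 484 CPM in controls and at 25.7 and 29.7 CPM after IC. The sum of 7 macrophage genes lay between 3062 and 8949 CPM. The part of such cells in the results was not tested beyond these levels.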

How the data were processed

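Libraries were made with a stranded low-input kit from 5 ng of total RNA and sequenced as paired reads of 150 bases. According to the submitters' processing notes and the study's methods, the authors trimmed reads with Trim Galore, checked them with FastQC, used HISAT2 for alignment to mm10 and obtained gene counts with featureCounts. The deposited values are raw read counts by gene symbol, and none was normalized. Versions, annotation and use of strand in counting are not given in the sources used here. Reads of genes on opposite strands, such as Ccl2 and Gm17268, may therefore not be told apart. The longest run shared by transcripts of 2 members was 23 bases, against reads of 150 bases. The joint table matched the single tables for 17 of 17 libraries, and 1 further column matched no label and was not used. No libraries were repeats of each other (between replicates, chi-square divided by its degrees of freedom was at least 6.77). The authors tested with DESeq2 and sva, and their batches are not named.

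Groups and replicate numbers came from the labels. Genes were kept with filterByExpr (minimum count 10), which left 15272, and TMM was used for scaling. One model of the 6 groups was fitted to 17 libraries with edgeR 4.0.16 in R 4.3.3 (robust quasi-likelihood fit, 11 residual degrees of freedom), and 13 comparisons were tested. Adjusted p-values are Benjamini-Hochberg values over all genes of a comparison, from edgeR unless another tool is named, and a gene is called under 0.05. Standard errors were taken from the fitted log2 fold change and its F value. A floor of 3 counts amounted to 0.414 to 1.30 CPM, for counting error only. Alternatives were DESeq2 1.42.0, RLE size factors, no filter, voom with quality weights (limma 3.58.1), a replicate block, 5 surrogate variables (sva 3.50.0), the compared groups alone, and leaving out each library. The code was tested on simulated data.

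Members and gene lists (other CC chemokines, receptors and scavengers, inducing cytokines and their receptors, factors of transcription and of mRNA decay, interferon-stimulated genes, cell type markers) were chosen with earlier results of these data known. One gene of the receptor list is not reported here and was left out of its counts. All members were described in every comparison, at most 5 genes of a list were named, by smallest p, and for each member the 5 genes with the highest Pearson's r over log2 CPM (prior count 2). Alignments of sequences were made with Biopython 1.88. Locus coordinates are from GENCODE M21 and upstream sequences, found for 2 of 4 members, from RefSeq.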

Additional observations from a re-analysis of the deposited data

Results flagged for a closer look

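The libraries of Ccl7 lay on opposite sides of their controls in 2 subsets. Every LYVE1+CX3CR1+ library after IC (49.8 to 83.1 CPM) lay below its controls (143 to 168 CPM), and every MHCII+CD11c- library after IC (267 to 351 CPM) lay above its controls (176 to 249 CPM). Taken singly, 16.7% of all genes lay lower with no overlap in the first subset and 8.72% lay higher in the second. The share of genes with both was not computed, so this pattern is not shown to be particular to Ccl7. The difference of the responses was -1.72 ± 0.42 on the log2 scale and did not pass the test over all genes (edgeR interaction, adjusted p = 0.234). Over the other fits its adjusted p ranged from 0.0314 to 0.515. It was called without the first MHCII+CD11c+ control (adjusted p = 0.0314), a library outside both subsets compared, and in a fit of the 4 groups alone (-1.63, adjusted p = 0.0341).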

How the results depend on the processing

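Each member was recomputed in 13 comparisons under 24 other fits. Of 1244 values, 1146 kept their direction and their side of the threshold, and 18 of 52 results did so under every fit. The exceptions follow as log2 fold changes. Where no value shows it, the cause was not tested. With 2 or 3 libraries a group, changes of low members such as Ccl12 and Ccl8 were the least precise. Counts of called genes behind the backgrounds moved by more than 1.5 times, namely from 43 to 433 (LYVE1+CX3CR1+ response, 147 in the report), 29 to 288 (MHCII+CD11c-, 107), 0 to 104 (MHCII+CD11c+, 33), 198 to 924 (average, 511), 96 to 977 (controls, LYVE1+CX3CR1+ minus MHCII+CD11c-, 238), 1591 to 3810 (controls, LYVE1+CX3CR1+ minus MHCII+CD11c+, 2326), 550 to 1948 (controls, MHCII+CD11c+ minus MHCII+CD11c-, 1323), 270 to 1422, 666 to 2846 and 145 to 1783 (the same pairs after IC, 846, 1824 and 616), and 0 to 74, 3 to 56 and 0 to 21 (differences of responses in the same order, 4, 5 and 0). At an unadjusted p under 0.05 the last of these comparisons had 496 genes, and DESeq2 called 2.

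DESeq2 added calls for the LYVE1+CX3CR1+ response of Ccl7 (-1.09) and for Ccl8 in the MHCII+CD11c+ response (2.08) and in LYVE1+CX3CR1+ minus MHCII+CD11c+ in controls (1.45), after IC (-1.71) and as the difference of responses (-3.16). The MHCII+CD11c+ response of Ccl2 turned to -0.020 with DESeq2 and to -0.020 with RLE size factors. With no filter on low counts, Ccl8 after IC in MHCII+CD11c+ minus MHCII+CD11c- lost its call (-2.42), the MHCII+CD11c- response of Ccl12 (1.62) and the difference of responses of Ccl2, LYVE1+CX3CR1+ minus MHCII+CD11c+ (-1.33), gained one, and the MHCII+CD11c- response of Ccl2 turned to 0.016.

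With voom and quality weights, Ccl2 in the LYVE1+CX3CR1+ response lost its call (-1.13). Calls were gained by Ccl12 in the MHCII+CD11c- response (1.98) and by Ccl2 in controls, LYVE1+CX3CR1+ minus MHCII+CD11c- (-0.70) and MHCII+CD11c+ minus MHCII+CD11c- (-0.68). Signs turned for Ccl2 in the MHCII+CD11c- response (0.048), Ccl7 in the average response (0.042), Ccl12 in LYVE1+CX3CR1+ minus MHCII+CD11c+ in controls (0.039), after IC (-0.065) and as the difference of responses (-0.10), and Ccl7 in the difference of responses of both MHCII+ subsets (0.010).

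With surrogate variables, calls were lost by Ccl12 (-1.25) in controls, LYVE1+CX3CR1+ minus MHCII+CD11c-, by Ccl7 in LYVE1+CX3CR1+ minus MHCII+CD11c+ (1.17) and by Ccl7 in MHCII+CD11c+ minus MHCII+CD11c- (-1.78). They were gained by Ccl12 in the MHCII+CD11c- response (2.08), Ccl2 on average (-0.49), Ccl8 after IC in LYVE1+CX3CR1+ minus MHCII+CD11c+ (-2.18) and Ccl2 in the difference of responses LYVE1+CX3CR1+ minus MHCII+CD11c- (-1.57). In LYVE1+CX3CR1+ minus MHCII+CD11c+, signs turned for Ccl2 (0.13) and Ccl12 (0.47) in controls and for Ccl12 after IC (-0.53) and in the difference of responses (-1.0). A fit of the groups of the comparison alone, which has fewer samples and was not run for the average, lost Ccl7 in controls, LYVE1+CX3CR1+ minus MHCII+CD11c+ (1.12), and Ccl12 in MHCII+CD11c+ minus MHCII+CD11c- (-2.24). It gained Ccl7 in the LYVE1+CX3CR1+ response (-1.11) and its difference from MHCII+CD11c- (-1.63), and Ccl8 in controls, LYVE1+CX3CR1+ minus MHCII+CD11c+ (1.46).

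Whether replicate numbers pair the libraries was not settled. No pair of groups with 3 shared numbers had every correlation of deviations above 0.1, and pairs with 2 shared numbers could not meet this rule. Between subsets of the same condition, the correlations of libraries with the same number were all positive, from 0.0013 to 0.286. Between controls and IC they ran from -0.153 to 0.0817. Of 17 libraries, 8 correlated best with their own number. Pairing of subsets by number was thus not excluded. With the number as a replicate block, the count of called genes moved by more than 1.5 times only in the difference of responses LYVE1+CX3CR1+ minus MHCII+CD11c+ (23 in place of 5). Calls were gained by Ccl12 in the MHCII+CD11c- response (1.74), Ccl2 in controls, MHCII+CD11c+ minus MHCII+CD11c- (-0.62), and, in LYVE1+CX3CR1+ minus MHCII+CD11c+, by Ccl8 after IC (-1.74) and Ccl2 in the difference of responses (-1.42). Signs turned for Ccl2 in the MHCII+CD11c- response (0.0030) and for Ccl12 in LYVE1+CX3CR1+ minus MHCII+CD11c+ after IC (-0.29) and in the difference of responses (-0.24). No call of a member was lost.

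Leaving out each library in turn changed a call or a sign in these results. Responses ranged from -1.27 to -0.94 for Ccl7 in LYVE1+CX3CR1+ macrophages, from -0.15 to 0.14 for Ccl2 and 1.28 to 2.38 for Ccl12 in MHCII+CD11c- macrophages, and from -0.12 to 0.20 for Ccl2, -0.13 to 0.69 for Ccl7 and 1.07 to 2.75 for Ccl8 in MHCII+CD11c+ macrophages. On average they ranged from -0.48 to -0.34 for Ccl2 and -0.25 to 0.020 for Ccl7. In controls, LYVE1+CX3CR1+ minus MHCII+CD11c- ranged from -2.99 to -2.55 for Ccl8 and -2.66 to -1.58 for Ccl12, and LYVE1+CX3CR1+ minus MHCII+CD11c+ from -0.26 to 0.083 for Ccl2, 1.23 to 1.83 for Ccl8 and -0.37 to 0.44 for Ccl12. MHCII+CD11c+ minus MHCII+CD11c- ranged from -2.78 to -1.45 for Ccl12 in controls and, after IC, from -2.18 to -1.80 for Ccl7, -3.50 to -1.82 for Ccl8 and -2.86 to -2.45 for Ccl12. LYVE1+CX3CR1+ minus MHCII+CD11c+ after IC ranged from -2.74 to -0.71 for Ccl8 and -0.16 to 0.19 for Ccl12. Differences of responses ranged from -1.82 to -1.48 for Ccl7 and -1.02 to 0.031 for Ccl12 (LYVE1+CX3CR1+ minus MHCII+CD11c-), from -1.86 to -1.04 for Ccl7, -4.23 to -2.19 for Ccl8 and -0.44 to 0.38 for Ccl12 (minus MHCII+CD11c+), and from -0.12 to 0.20 for Ccl2, -0.68 to 0.14 for Ccl7 and -1.16 to 0.15 for Ccl12 (MHCII+CD11c+ minus MHCII+CD11c-).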

Other observations

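Among genes that neighbour the members, Ccl11 had at most 22 counts in a library, in the second MHCII+CD11c- library after IC. It had counts in 10 of 11 libraries of the MHCII+ subsets. In LYVE1+CX3CR1+ macrophages it had 2, 0 and 2 counts in controls and 0 in all 3 libraries after IC, all under the floor of 3 counts. Those controls held 3669763 to 7248939 counts in total, and the libraries after IC 2301913 to 3348248.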
